A study of Mus musculus with 3 samples.

Results

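The mammalian circadian clock was described through 9 of its genes, Nr1d1, Nr1d2, Per1, Per2, Dbp, Tef, Arntl, Clock and Cry1, in lymphocytes sorted from mouse lung. These 9 were taken by symbol from the 32285 genes of the count matrices, and all 9 had at least 1 UMI (a molecule counted once by its barcode) among 19021 detected genes. The members, and the split of gamma delta T cells by Il17a transcript used below, were chosen from values measured in these same libraries, so everything that follows is a description without a test.

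The study sorted lung innate lymphoid cells from mice that carry a GFP reporter of Gfi1b, a transcriptional repressor of blood cell development, and profiled them by droplet 3′ single-cell RNA sequencing. Live cells positive for CD45, CD90.2 and IL-7R and negative for lineage antibodies were taken from perfused, enzyme-digested lungs, and gave 3 libraries, 1 for each group. The IL-18R+ pool combined IL-18R+ CD103+ GFP- cells with IL-18R+ CD103- GFP+ cells, with no label on a cell to tell which sort it came from. A further library was labelled IL-18R- CD103- GFP- and the last IL-18R- ST2+, where ST2 is the IL-33 receptor encoded by Il1rl1. All cells carried the same reporter background as far as the labels say, with no treatment stated, and the age, sex and number of the mice and the hour at which lungs were taken are missing from the sources used here. Collection hour and library cannot be told apart, and no rhythm can be read from 3 libraries.

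The clock is a feedback loop. CLOCK and ARNTL (BMAL1) bind E-boxes as a pair and switch on the Per and Cry genes, whose proteins return to the nucleus and block that pair, while casein kinases and F-box proteins set how long they last. In a second loop the nuclear receptors NR1D1 and NR1D2 (REV-ERB alpha and beta), themselves E-box targets, repress Arntl at ROR elements where RORA activates it, and the PAR bZIP factors DBP, TEF and HLF act on D-boxes that their antagonist NFIL3 also binds. RORA and NFIL3 are also needed for innate lymphoid cell development in mice, so this loop shares proteins with lymphocyte identity.

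After filtering, 1659, 1883 and 1622 cells remained in the IL-18R+ pool, the IL-18R- CD103- GFP- labelled library and the IL-18R- ST2+ library, with 9000301, 9705864 and 7966923 UMIs and medians of 4932, 4772 and 4568 UMIs a cell. Cells with Trdc and Cd3e transcripts, gated as gamma delta T cells, numbered 840, 1417 and 11. Alpha beta T cells (Trac with Trbc1 or Trbc2) numbered 209, 95 and 2, CD3-negative Il18r1+ Tcf7+ cells 134, 78 and 0, and ILC2 (Gata3 and Il1rl1 without CD3 genes) 13, 12 and 1345. The lineage-negative sorts therefore held mostly Cd3e-positive cells outside the IL-18R- ST2+ library. Gfi1b had 0 UMIs in all 3 libraries, and Il18r1, which encodes IL-18R, stood at 663.3, 591.3 and 16.07 UMIs per 1000000 UMIs (UPM). The IL-18R- part of the name IL-18R- CD103- GFP- thus goes against the Il18r1 transcript, though the name is of a sort and the value is RNA. The name is used here as a label. The pool and the IL-18R- CD103- GFP- labelled library shared 1 cell barcode, and neither shared any with the IL-18R- ST2+ library.

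Promoters of the members are shown because Nr1d1 and Cry1 are the members that stand apart between libraries below, Arntl and Clock lean the same way, and Nr1d2 is the paralog of Nr1d1 that does not. RefSeq windows (GRCm38.p6), the 250 bases before each transcript start, were found for 8 of the 9 members. Capitals mark an E-box (CACGTG), an E-prime box (CACGTT) or a ROR element core (AGGTCA) found on either strand, so that AACGTG is an E-prime box read on the other strand.
Nr1d1 (chr11:98775378-98775627, minus strand): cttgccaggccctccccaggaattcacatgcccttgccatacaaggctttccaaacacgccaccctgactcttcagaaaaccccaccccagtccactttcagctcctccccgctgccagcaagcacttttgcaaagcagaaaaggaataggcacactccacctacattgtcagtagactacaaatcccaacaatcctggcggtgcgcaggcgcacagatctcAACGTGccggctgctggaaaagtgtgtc
Cry1 (chr10:85185055-85185304, minus strand): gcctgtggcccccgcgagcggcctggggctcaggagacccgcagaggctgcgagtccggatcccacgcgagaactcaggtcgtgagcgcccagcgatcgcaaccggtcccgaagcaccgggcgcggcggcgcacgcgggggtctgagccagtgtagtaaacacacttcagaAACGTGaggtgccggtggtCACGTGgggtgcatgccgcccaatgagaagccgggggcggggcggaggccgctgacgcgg
Arntl (chr7:113207215-113207464, plus strand): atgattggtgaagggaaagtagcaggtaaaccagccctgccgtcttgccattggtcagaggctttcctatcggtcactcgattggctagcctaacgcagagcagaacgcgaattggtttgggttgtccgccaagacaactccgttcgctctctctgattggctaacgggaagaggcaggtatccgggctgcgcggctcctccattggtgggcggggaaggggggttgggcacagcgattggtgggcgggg
Clock (chr5:76304793-76305042, minus strand): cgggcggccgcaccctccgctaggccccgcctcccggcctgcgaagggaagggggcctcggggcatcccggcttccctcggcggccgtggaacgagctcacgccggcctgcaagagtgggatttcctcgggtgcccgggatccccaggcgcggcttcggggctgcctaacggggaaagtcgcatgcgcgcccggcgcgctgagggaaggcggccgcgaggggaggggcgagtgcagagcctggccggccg
Nr1d2 (chr14:18239107-18239356, minus strand): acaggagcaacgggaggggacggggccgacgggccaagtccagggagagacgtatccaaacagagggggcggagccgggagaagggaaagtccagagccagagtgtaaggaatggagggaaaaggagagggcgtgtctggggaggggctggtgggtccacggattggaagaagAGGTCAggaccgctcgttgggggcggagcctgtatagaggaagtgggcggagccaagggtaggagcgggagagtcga
The Nr1d1 window held an E-prime box whose first base lies 28 bases before the start, and the Cry1 window held an E-box 60 bases and an E-prime box 79 bases before it. The Arntl and Clock windows shown held none of these letters, and the Nr1d2 window held a ROR element core 77 bases before its start. Arntl and Clock also have windows of other starts, not shown. That of Arntl held none of the letters, and 1 of Clock held a ROR element core 119 bases before its start. Elements outside the 250 bases, or with other letters, were not searched for. Over all 32851 promoter windows, 6.02% held the E-box, 3.85% the E-prime box and 14% the core, against 4, 2 and 3 of the 13 windows of members. The D-box letters TTATGTAA were in 0 of the 13 and in 0.819% of all windows. The E-box and the E-prime box differ in their last letter, so no position matched both, and a match is a description of letters, not of binding.

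Gene positions are those of GENCODE M21 on GRCm38. Nr1d1 spans chr11:98767932-98775333 on the minus strand and Per1 chr11:69095217-69109960 on the plus strand of the same chromosome. Dbp (chr7:45705088-45710203) and Arntl (chr7:113207465-113314126) share chromosome 7, on the plus strand. Cry1 spans chr10:85131700-85185064, Clock chr5:76209868-76304792 and Nr1d2 chr14:18204054-18239127, all on the minus strand. Per2 spans chr1:91415982-91459324 on the minus strand and Tef chr15:81802421-81826863 on the plus strand. Nr1d1 overlaps Thra, Dbp overlaps Sphk2, Tef overlaps Gm17597 and Arntl overlaps Gm45355 on the opposite strand, and Clock overlaps the pseudogenes Ube2n-ps1 and Gm43658 on its own. Whether the authors counted by strand is not given in the sources used here. How reads of such overlapping pairs were assigned is therefore not known here.

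Across whole libraries, Nr1d1 and Cry1 were high in the pool and the IL-18R- CD103- GFP- labelled library and low in the IL-18R- ST2+ library, while Per1 and Nr1d2 stood at nearly the same level in all 3. Arntl and Clock lay between these patterns, and Per2 was close to absent everywhere. Levels are UPM, over the UMIs of the same cells. A 3′ count is made once per transcript end and is not divided by transcript length, and all limits in brackets are exact 95% limits of counting error alone.

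Nr1d1, the haem-binding repressor that closes the second loop, had 39.0 UPM (35.03 to 43.3) in the pool and 45.02 UPM (40.9 to 49.45) in the IL-18R- CD103- GFP- labelled library, against 16.19 UPM (13.52 to 19.24) in the IL-18R- ST2+ library. The first 2 libraries were both well above the third, and no limits overlapped across that gap. The ratio to the IL-18R- ST2+ library was 2.41 (1.96 to 2.97) for the pool and 2.78 (2.28 to 3.41) for the IL-18R- CD103- GFP- labelled library. With every cell thinned to 2000 UMIs, a Nr1d1 UMI was found in 6.89%, 8.69% and 2.86% of cells of the pool, the IL-18R- CD103- GFP- labelled library and the IL-18R- ST2+ library (16.7%, 16.8% and 6.72% without thinning). No cell type of these sorts is known to lack clock transcripts, so no share of free RNA could be set for them.

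Cry1, the stronger repressor of the CRY pair, had 37.11 UPM (33.24 to 41.31) in the pool, 28.33 UPM (25.08 to 31.89) in the IL-18R- CD103- GFP- labelled library and 10.79 UPM (8.634 to 13.33) in the IL-18R- ST2+ library. Its libraries fell in the same high and low groups as those of Nr1d1, with ratios to the IL-18R- ST2+ library of 3.44 (2.7 to 4.41) and 2.62 (2.05 to 3.38). The pool was 1.31 times (1.11 to 1.54) the IL-18R- CD103- GFP- labelled library, a gap that was not seen after thinning (log2 ratio 0.03), where the shares of cells with Cry1 were 6.28% and 6.06%.

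The activators leaned the same way by less. Arntl had 49.44 UPM in the pool, 41.73 UPM in the IL-18R- CD103- GFP- labelled library and 28.87 UPM in the IL-18R- ST2+ library, with ratios to the last of 1.71 (1.46 to 2.02) and 1.45 (1.23 to 1.71). Clock, the acetyltransferase partner of ARNTL, had 45.78 UPM in the pool, 52.96 UPM in the IL-18R- CD103- GFP- labelled library and 32.38 UPM in the IL-18R- ST2+ library, with ratios of 1.41 (1.21 to 1.66) and 1.64 (1.41 to 1.91). The IL-18R- ST2+ library was thus the lowest for both partners.

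Per1, a repressor whose transcription also answers glucocorticoid and cyclic AMP signals at once, was the most abundant member. Its levels were 96.77 UPM (90.45 to 103.4) in the pool, 86.65 UPM (80.89 to 92.71) in the IL-18R- CD103- GFP- labelled library and 98.41 UPM (91.64 to 105.5) in the IL-18R- ST2+ library. Nr1d2 had 55.22 UPM in the pool, 56.05 UPM in the IL-18R- CD103- GFP- labelled library and 51.46 UPM in the IL-18R- ST2+ library, with limits that overlapped in all 3 libraries. Unlike Nr1d1, its ratios to the IL-18R- ST2+ library were 1.07 (0.94 to 1.23) for the pool and 1.09 (0.956 to 1.24) for the IL-18R- CD103- GFP- labelled library.

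The output factors were low. Dbp had 19.55, 15.35 and 17.45 UPM in the pool, the IL-18R- CD103- GFP- labelled library and the IL-18R- ST2+ library, and Tef had 6.0, 5.77 and 7.908 UPM in them. Per2, a core repressor of the first loop, had 4, 9 and 9 UMIs in the pool, the IL-18R- CD103- GFP- labelled library and the IL-18R- ST2+ library, or 0.4444, 0.9273 and 1.13 UPM, close to the floor of 3 UMIs (0.333, 0.309 and 0.377 UPM). No difference in Per2 was detectable at this depth, and its Per1 partner was counted 871, 841 and 784 times in the same cells. No member rested on a few cells except Per2: the 3 cells with most UMIs of a gene held 1.66% to 11.1% of the UMIs of each of the other 8 members in each library.

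**Figure D1:**
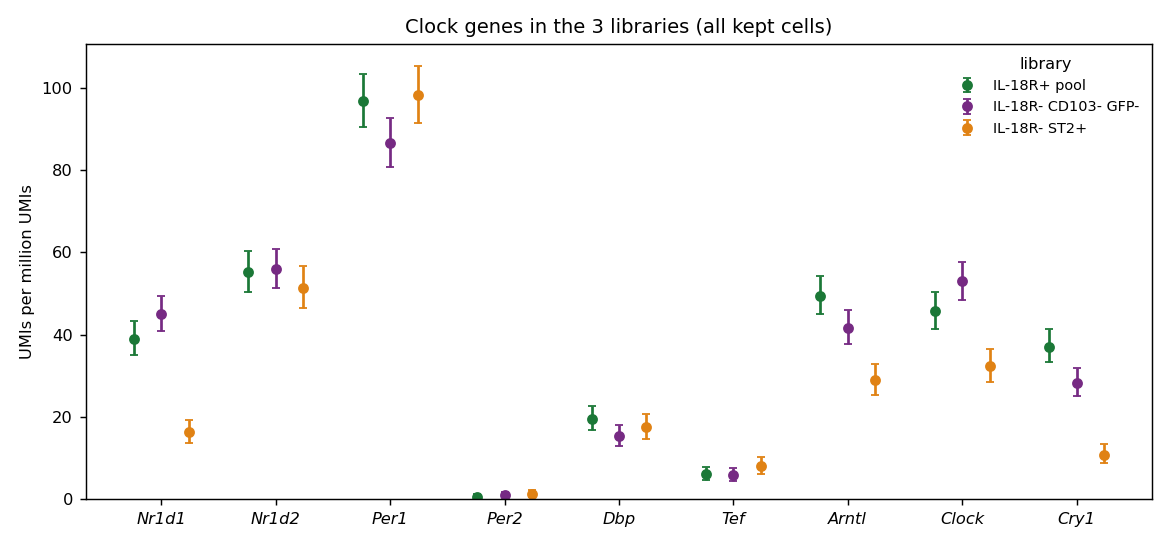
Levels of the 9 clock genes over all kept cells of each library, in UPM on a linear axis, where points are library sums and bars exact 95% Poisson limits of counting error. Nr1d1 and Cry1 sit lowest in the IL-18R- ST2+ library at 16.19 and 10.79 UPM, while the 3 points of Nr1d2 lie between 51.46 and 56.05 UPM and Per2 lies at the base line.

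A gene was counted as measured where either side reached 20 UPM and as called where the sides differed by at least 2-fold. Of the 6 measured members, Nr1d1 and Cry1 were called higher in the pool than in the IL-18R- ST2+ library and none lower, against 12.3% and 4.34% of 5928 measured genes called higher and lower. The same 2 of 6 were called higher in the IL-18R- CD103- GFP- labelled library than in the IL-18R- ST2+ library, beside 9.61% of genes called higher and 5.4% lower. Between the pool and the IL-18R- CD103- GFP- labelled library, 0 of 6 members were called, beside 2.55% of genes higher in the pool and 0.792% lower. The median log2 ratio of the members was 0.638 for the pool and 0.621 for the IL-18R- CD103- GFP- labelled library against the IL-18R- ST2+ library, beside medians of 0.300 and 0.190 over all measured genes. These comparisons share the IL-18R- ST2+ library.

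The ratios depend on how libraries are scaled. TMM scaling shifted all log2 ratios by -0.316 for the pool against the IL-18R- ST2+ library, by -0.144 for the IL-18R- CD103- GFP- labelled library against the IL-18R- ST2+ library and by -0.136 for the pool against the IL-18R- CD103- GFP- labelled library. It changed the genes called higher and lower in the pool than in the IL-18R- ST2+ library to 419 and 381, against 732 and 257 as counted. For the IL-18R- CD103- GFP- labelled library they became 415 and 359, against 550 and 309. Under it Nr1d1 of the pool missed the 2-fold line at a log2 ratio of 0.95 while Cry1 stayed past it at 1.47, and Nr1d2 changed direction to -0.21.

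The lineages that fill the libraries showed the same division. Gamma delta T cells had more Nr1d1, Cry1, Arntl and Clock than ILC2, and no member differed by 2-fold between those of the pool and those of the IL-18R- CD103- GFP- labelled library. In gamma delta T cells, T cells with an innate-like program that in mouse lung include IL-17 producers, Nr1d1 had 52.2 UPM (45.42 to 59.7) in the pool and 52.11 UPM (46.98 to 57.65) in the IL-18R- CD103- GFP- labelled library, against 16.7 UPM (13.75 to 20.1) in ILC2, the type 2 cytokine producers, of the IL-18R- ST2+ library. The ratios to ILC2 were 3.13 (2.47 to 3.96) and 3.12 (2.52 to 3.89). Cry1 had 34.8 UPM in gamma delta T cells of the pool and 31.65 UPM in those of the IL-18R- CD103- GFP- labelled library, against 11.03 UPM in ILC2, with ratios of 3.15 (2.36 to 4.24) and 2.87 (2.2 to 3.78). Gamma delta T cells of either library thus stood about as far above the same ILC2, those of the IL-18R- ST2+ library, for both genes.

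Arntl had 58.81 UPM in gamma delta T cells of the pool and 43.4 UPM in those of the IL-18R- CD103- GFP- labelled library, against 30.42 UPM in ILC2. Clock had 62.0 UPM in gamma delta T cells of the pool and 58.75 UPM in those of the IL-18R- CD103- GFP- labelled library, against 33.1 UPM in ILC2, with ratios of 1.87 (1.56 to 2.25) and 1.77 (1.51 to 2.1) that did not reach 2-fold. Per1 stood at 110.8 UPM in gamma delta T cells of the pool and at 86.53 UPM in those of the IL-18R- CD103- GFP- labelled library, either side of 100.9 UPM in ILC2. Of the members measured, Nr1d1 and Cry1 were called higher in gamma delta T cells and none lower, 2 of 7 for the pool and 2 of 6 for the IL-18R- CD103- GFP- labelled library. Over all genes, 12.4% were called higher and 5.94% lower in gamma delta T cells of the pool than in ILC2, and 10.9% and 6.02% in those of the IL-18R- CD103- GFP- labelled library. TMM scaling changed these totals of genes to 459 higher and 454 lower for the pool, against 717 and 343, and to 453 and 425 for the IL-18R- CD103- GFP- labelled library, against 625 and 344. These 2 lineage comparisons were added after values had been seen, and library and lineage cannot be told apart in them, since each lineage was frequent on its own side.

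Between the gamma delta T cells of the 2 libraries, 0 of 7 measured members were called, beside 0.462% of 5630 genes higher in the pool and 1.33% lower. All 7 had ratios of 1.0 or above (with TMM scaling Nr1d1 lay just below): Nr1d1 at 1.0 (0.843 to 1.19), Clock at 1.06 (0.9 to 1.24) and Cry1 at 1.1 (0.885 to 1.36) lay nearest to equal. Per1 at 1.28 (1.13 to 1.45), Arntl at 1.35 (1.14 to 1.61) and Dbp at 1.39 (1.04 to 1.84) lay farthest above. The median log2 ratio of the 7 was 0.185 beside 0.077 over all genes. In 16 genes that respond to tissue handling, glucocorticoid or cyclic AMP, such as Fos and Dusp1, 13 were above 0 in the same comparison, with a median of 0.375, and their part in the result was not tested.

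Within a library, lineages can be compared at the same hour of collection. In the pool, 0 of 7 measured members were called between gamma delta and alpha beta T cells, beside 2.9% of genes higher in gamma delta T cells and 2.63% lower. Nr1d1 had 52.2 UPM in gamma delta and 44.49 UPM in alpha beta T cells, a ratio of 1.17 (0.867 to 1.61), a gap within counting error. Arntl had 58.81 UPM in gamma delta and 35.43 UPM in alpha beta T cells, a ratio of 1.66 (1.2 to 2.35). In the IL-18R- CD103- GFP- labelled library the gap was wider: Nr1d1 had 52.11 UPM from 377 UMIs in gamma delta and 12.86 UPM from 8 UMIs in alpha beta T cells, a ratio of 4.05 (2.04 to 9.46). Arntl had 43.4 UPM in gamma delta and 19.29 UPM in alpha beta T cells, a ratio of 2.25 (1.27 to 4.4), so 2 of 6 members were called higher in gamma delta T cells and none lower, beside 8.55% of genes higher and 2.61% lower. Median-of-ratios scaling put those genes at 362 higher and 186 lower, against 485 and 148 as counted. The call of Arntl ended without the 5% of cells with most UMIs and also after thinning, where it was found in 8.25% of gamma delta and 7.37% of alpha beta T cells. Nr1d1 was still called under both, in 9.67% of gamma delta and 4.21% of alpha beta T cells after thinning.

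The alpha beta T cells themselves differed between the libraries. Nr1d1 had 44.49 UPM from 54 UMIs in those of the pool, against 12.86 UPM in those of the IL-18R- CD103- GFP- labelled library, a ratio of 3.46 (1.64 to 8.42). Nr1d2 had 65.91 UPM in those of the pool and 30.54 UPM in those of the IL-18R- CD103- GFP- labelled library, a ratio of 2.16 (1.3 to 3.77). Both REV-ERB genes were thus higher on the pool's side as counted. Dbp had 23.07 UPM in those of the pool and 11.25 UPM in those of the IL-18R- CD103- GFP- labelled library, a ratio of 2.05 (0.875 to 5.56) whose limits span 1. Cry1 had 35.43 UPM in those of the pool and 17.68 UPM in those of the IL-18R- CD103- GFP- labelled library, a ratio of 2.0 (1.02 to 4.31). These 4 of 7 measured members were called higher in the pool and none lower, beside 11.4% of 5714 genes higher and 4.04% lower. With TMM scaling 1 of the 4 calls was left, Nr1d1, and genes called higher and lower became 421 and 336, against 650 and 231 as counted. With every cell thinned to 2000 UMIs the 1 call left was another, Nr1d2, in 15.9% of alpha beta T cells of the pool and 6.32% of those of the IL-18R- CD103- GFP- labelled library. Nr1d1 then lost its call, with a UMI in 6.25% of those of the pool and 4.21% of those of the IL-18R- CD103- GFP- labelled library. Cry1 turned round, with a UMI in 4.33% of those of the pool and 8.42% of those of the IL-18R- CD103- GFP- labelled library (log2 ratio -0.961). No call of this comparison thus held under both scaling and thinning. Per1 and Clock were within counting error of equal, at ratios of 1.37 (0.938 to 2.03) and 0.934 (0.578 to 1.54).

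The alpha beta T cells of the 2 libraries were not of the same make-up. Il17a, the type 17 cytokine gene, had 214.2 UPM in alpha beta T cells of the pool and 3.214 UPM in those of the IL-18R- CD103- GFP- labelled library. Cd8a, the co-receptor of cytotoxic T cells, lay the other way, with 10.71 UPM in those of the pool and 83.57 UPM in those of the IL-18R- CD103- GFP- labelled library. Of 14 measured handling genes, 7 were called higher in the pool and 1 lower, among them Atf3, a stress-induced repressor, at 374.1 UPM in the pool and 57.86 UPM in the IL-18R- CD103- GFP- labelled library. The part of these genes in the clock values was not tested.

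CD3-negative Il18r1+ Tcf7+ cells carry the receptor and factor that mark innate lymphoid precursors in mice. As counted, their Nr1d1 differed between the 2 libraries. After thinning, a Nr1d1 UMI was in 3.73% (1.22 to 8.49) of those of the pool. In those of the IL-18R- CD103- GFP- labelled library the share was 8.97% (3.68 to 17.6), with overlapping limits. In the pool Nr1d1 had 52.2 UPM in gamma delta T cells and 20.06 UPM from 21 UMIs in CD3-negative cells, a ratio of 2.6 (1.66 to 4.29). Clock had 62.0 UPM in gamma delta T cells and 23.88 UPM in CD3-negative cells, also a ratio of 2.6 (1.72 to 4.09), and these 2 of 7 were the members called, both higher in gamma delta T cells, beside 6.98% of 6171 genes higher and 9.38% lower. Arntl and Cry1 were at ratios of 1.01 (0.759 to 1.36) and 1.04 (0.715 to 1.55). Thus the partners Arntl and Clock were at like levels in gamma delta T cells and apart in CD3-negative cells, where Arntl had 58.27 UPM and Clock 23.88 UPM.

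In the IL-18R- CD103- GFP- labelled library, Nr1d1 had 52.11 UPM in gamma delta T cells and 56.05 UPM from 23 UMIs in CD3-negative cells, a ratio of 0.93 (0.61 to 1.48). Clock was again higher in gamma delta T cells, at 58.75 UPM against 29.24 UPM from 12 UMIs in CD3-negative cells (ratio 2.01, 1.14 to 3.92). So was Cry1, at 31.65 UPM against 12.18 UPM from 5 UMIs in CD3-negative cells (ratio 2.6, 1.1 to 8.08). Tef was called lower in gamma delta T cells, at 4.562 UPM against 21.93 UPM from 9 UMIs in CD3-negative cells (ratio 0.208, 0.0974 to 0.494). Of 8 measured members, 2 were called higher and 1 lower in gamma delta T cells, beside 5% of 6060 genes higher and 9.34% lower. None of these 3 calls was left after thinning, and Dbp was called lower in gamma delta T cells instead. Clock was then found in 12.1%, Cry1 in 6.4% and Tef in 0.853% of gamma delta T cells, against 6.41%, 2.56% and 3.85% of CD3-negative cells. In the 78 thinned CD3-negative cells, Cry1 and Tef lay at or near the floor of 3 UMIs and the minimum of 20 UPM. Their lost calls therefore cannot show that the differences went away. Both shares still leaned as before, with overlapping limits. Nr1d1 moved to the other side of equal, in 9.67% of gamma delta T cells and 8.97% of CD3-negative cells. The call of Tef also ended without the 3 cells that held most of its UMIs, and that of Clock with gamma delta T cells gated on 1 Trdc UMI. This comparison was added after values had been seen. TMM scaling turned the balance of genes called higher and lower to 475 and 417 here, against 303 and 566, and to 584 and 485 in the pool, against 431 and 579. The CD3-negative cells also differed between libraries in depth and in other markers, given here for the pool and then the IL-18R- CD103- GFP- labelled library. Their median depth was 7114 and 4940 UMIs, beside 4712 and 4731 UMIs in gamma delta T cells. ILC2 markers summed to 1098 and 499.6 UPM in them and alpha beta markers to 1963 and 984.5 UPM. Myeloid markers lay the other way, at 373.5 and 972.4 UPM. Among these Fcer1g, a signalling chain of innate cells, had 371.6 and 969.9 UPM. Cd4 had 0.9552 and 107.2 UPM. The gate thus held a mixture that was not the same in the 2 libraries. The part of depth and of these markers in the result was not tested.

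**Figure D2:**
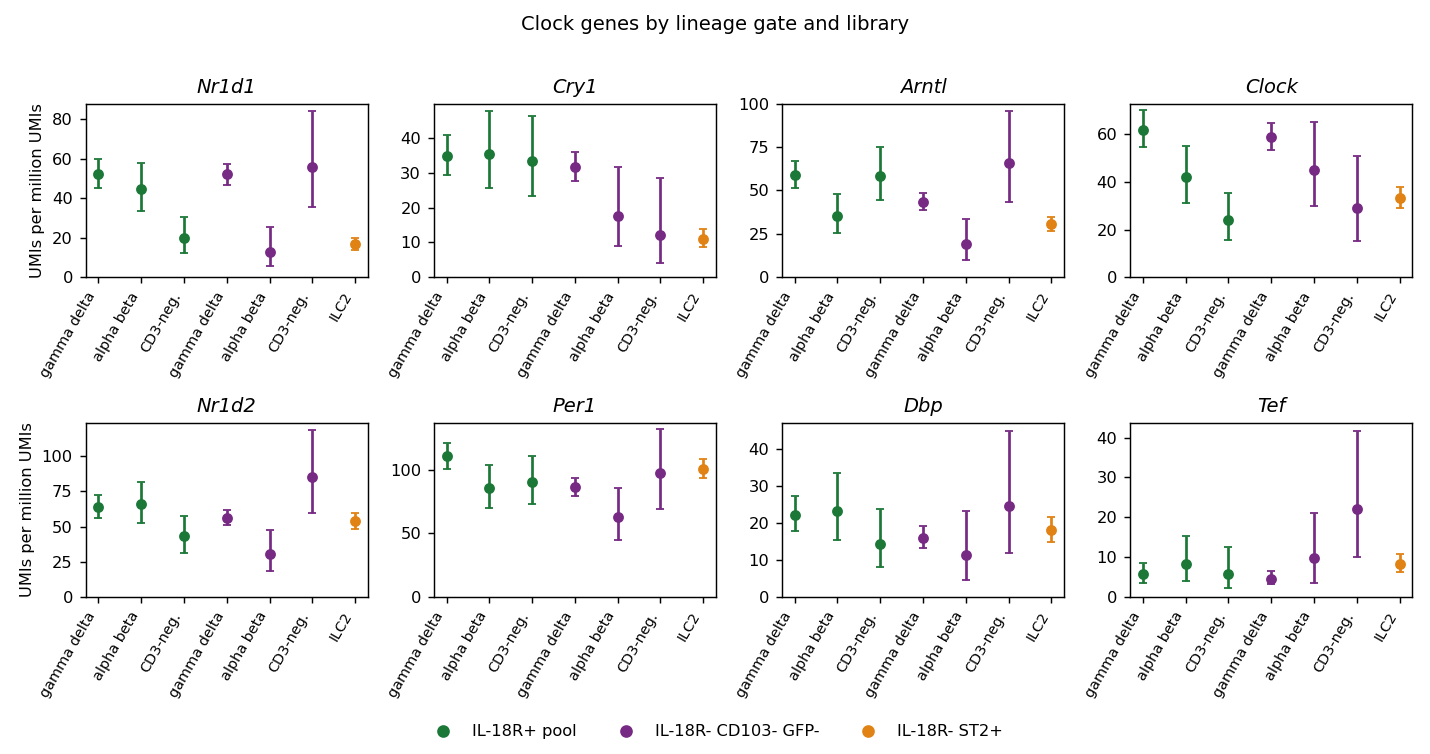
Levels of 8 clock genes in UPM (linear axes from 0, each panel with its own range) in each lineage gate of at least 50 cells, coloured by library, with exact 95% Poisson limits of counting error. Nr1d1 of gamma delta T cells stands at 52.2 and 52.11 UPM in the 2 libraries with at least 50 of them, against 16.7 UPM in ILC2, and Cry1 of ILC2 at 11.03 UPM is the lowest of its panel.

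Over these 7 library and lineage groups, Nr1d1 ran from 56.05 UPM in CD3-negative cells of the IL-18R- CD103- GFP- labelled library, through gamma delta T cells of both libraries and alpha beta T cells of the pool at 44.49 UPM, to 20.06 UPM in CD3-negative cells of the pool, 16.7 UPM in ILC2 and 12.86 UPM in alpha beta T cells of the IL-18R- CD103- GFP- labelled library. Neighbours in that order overlapped in their counting limits within the upper 4 groups and within the lower 3. The step between 44.49 UPM (33.42 to 58.05) and 20.06 UPM (12.42 to 30.66) was the one that did not. Ungated cells were a mixture, given here for the pool, the IL-18R- CD103- GFP- labelled library and the IL-18R- ST2+ library in that order. Myeloid markers summed to 2714, 1253 and 1360 UPM in them, and epithelium markers to 1710, 20.34 and 2926 UPM. ILC2 markers summed to 484.6, 339.9 and 2395 UPM, and alpha beta markers to 1469, 1705 and 899.8 UPM. Ungated cells had 27.12, 20.34 and 11.9 UPM of Nr1d1. They numbered 421, 247 and 264 cells, and leaving them out moved the Nr1d1 log2 ratio to 1.34 for the pool and to 1.52 for the IL-18R- CD103- GFP- labelled library against the IL-18R- ST2+ library, against 1.27 and 1.48 with them.

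Per1 varied least in relative terms over the 7 groups, between 62.68 UPM in alpha beta T cells of the IL-18R- CD103- GFP- labelled library and 110.8 UPM in gamma delta T cells of the pool. Arntl was lowest in those same alpha beta T cells (19.29 UPM, 9.965 to 33.69) and highest in the CD3-negative cells of that library (65.8 UPM, 43.36 to 95.73). Of 5420 genes with a mean of at least 20 UPM over the 7 groups, the 5 whose log2(UPM + 1) followed Nr1d1 most closely were Abi3bp (r = 0.991), Dock5 (0.981), Psd4 (0.980), Sdccag8 (0.975) and Eid1 (0.969). Abi3bp, which encodes an extracellular matrix protein, had 115.4 and 70.63 UPM in gamma delta T cells of the pool and the IL-18R- CD103- GFP- labelled library, and 0.4473 UPM in ILC2. The paralog Nr1d2 ranked 220th with r = 0.844, Arntl 858th with 0.684 and Per1 1603rd with 0.526. These are descriptions over 7 points, which share 3 libraries.

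Within gamma delta T cells, all 7 measured clock genes were at ratios above 1 in cells with Il17a transcript over cells without it in the IL-18R- CD103- GFP- labelled library, 5 of them beyond counting error. In the pool 1 of the 7, Nr1d2, was above 1 beyond counting error. These are values as counted. With each cell thinned to 2000 UMIs, the shares of cells with each of the 5 genes were still higher in Il17a+ cells. Their limits stayed apart for Per1, at 23% (19.3 to 26.9) of Il17a+ and 13.9% (11.8 to 16.4) of Il17a- cells. They overlapped for Nr1d1, Nr1d2, Arntl and Cry1, and for Nr1d2 of the pool. Il17a was found in 464 of 840 gamma delta T cells of the pool and in 492 of 1417 of the IL-18R- CD103- GFP- labelled library. Median depth differed little, at 4742 UMIs in Il17a+ and 4692 UMIs in Il17a- cells of the pool and at 4594 and 4828 UMIs in those of the IL-18R- CD103- GFP- labelled library.

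In the IL-18R- CD103- GFP- labelled library, Nr1d1 had 74.13 UPM (63.52 to 86.0) in Il17a+ and 41.54 UPM (36.02 to 47.66) in Il17a- gamma delta T cells, a ratio of 1.78 (1.45 to 2.2). Nr1d2 had 76.26 UPM in Il17a+ and 46.65 UPM in Il17a- cells, a ratio of 1.63 (1.34 to 2.0). Per1 had 109.9 UPM in Il17a+ and 75.3 UPM in Il17a- cells, a ratio of 1.46 (1.24 to 1.72). Both REV-ERB genes and Per1 were thus higher in the Il17a+ cells by under 2-fold, while Per2 had 0 UMIs in Il17a+ and 6 UMIs in Il17a- cells and was not measured. Cry1 had 40.9 UPM in Il17a+ and 27.21 UPM in Il17a- cells, a ratio of 1.5 (1.14 to 1.97). Of the activator pair, Arntl had 56.23 UPM in Il17a+ and 37.24 UPM in Il17a- cells, a ratio of 1.51 (1.2 to 1.9), and Clock 66.46 UPM in Il17a+ and 55.04 UPM in Il17a- cells, a ratio of 1.21 (0.985 to 1.48). Dbp had 20.02 UPM in Il17a+ and 13.91 UPM in Il17a- cells, a ratio of 1.44 (0.971 to 2.12). The limits of Dbp and Clock spanned 1 and those of the other 5 did not.

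In the pool the same split left Nr1d1 at 51.0 UPM (42.14 to 61.17) in Il17a+ and 53.7 UPM (43.55 to 65.51) in Il17a- gamma delta T cells, a ratio of 0.95 (0.719 to 1.26). Nr1d2 was the member with a gap, at 73.86 UPM in Il17a+ and 51.49 UPM in Il17a- cells (ratio 1.43, 1.11 to 1.87). Cry1 lay the other way, at 29.9 UPM in Il17a+ and 40.97 UPM in Il17a- cells (ratio 0.73, 0.517 to 1.03, which spans 1). Per1, Arntl, Clock and Dbp were at ratios of 1.04, 1.23, 1.0 and 0.949, with limits that all spanned 1.

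No member was called in either library: 0 of 7 in the pool, beside 0.352% of 5686 genes higher and 0.809% lower in Il17a+ cells, and 0 of 7 in the IL-18R- CD103- GFP- labelled library, beside 1.47% of 5706 genes higher and 2.1% lower. The median log2 ratio of the 7 was 0.588 in the IL-18R- CD103- GFP- labelled library, beside 0.127 over all genes, and 0.000 in the pool, beside 0.012. The Nr1d1 ratio of the IL-18R- CD103- GFP- labelled library moved with depth, to a log2 ratio of 0.40 with each cell thinned to 2000 UMIs and to 1.09 in cells of at least 4000 UMIs, against 0.84 as counted. TMM scaling put the genes called higher and lower in that library at 40 and 134, against 84 and 120 as counted.

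By number of Il17a UMIs, Nr1d1 of the IL-18R- CD103- GFP- labelled library stood at 41.54 UPM (36.02 to 47.66) in cells with 0, 68.7 UPM (52.79 to 87.9) with 1 to 2, 86.22 UPM (67.82 to 108.1) with 3 to 9 and 64.23 UPM (44.98 to 88.92) with 10 or more. The limits of cells with 1 to 2 and with 3 to 9 lay above those of cells with 0, the limits with 10 or more overlapped them, and those of the 196, 181 and 115 positive cells overlapped each other. In the pool the same steps gave 53.7, 37.76, 53.81 and 58.35 UPM, with overlapping limits throughout.

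**Figure D3:**
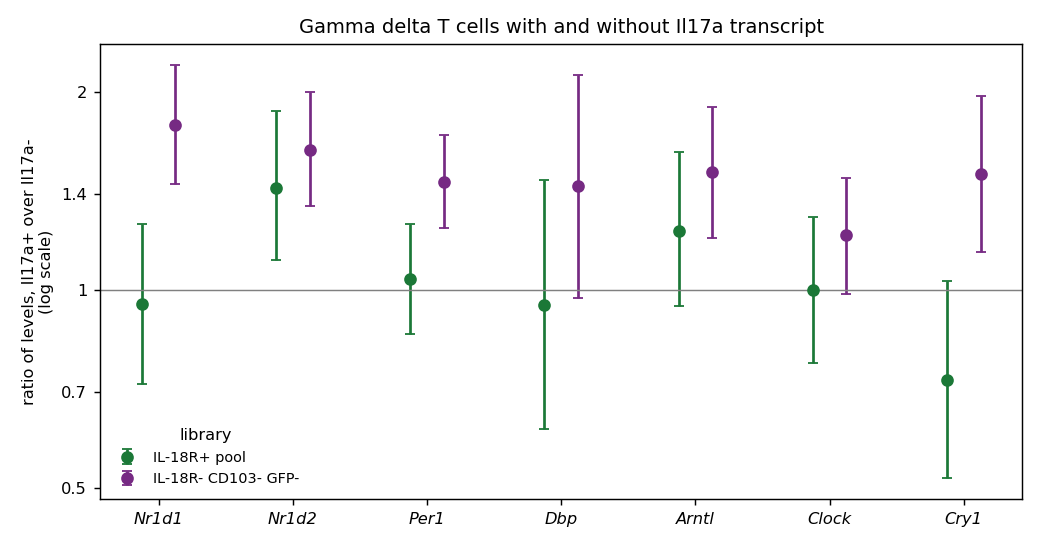
Ratio of the level in Il17a+ over Il17a- gamma delta T cells (log axis, exact 95% limits of counting error) for the 7 clock genes of at least 20 UPM, in the pool and the IL-18R- CD103- GFP- labelled library. All 7 points of the IL-18R- CD103- GFP- labelled library lie between 1.21 and 1.78, above the line at 1, while those of the pool lie between 0.73 and 1.43 on both sides of it.

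Other genes moved with the split in the IL-18R- CD103- GFP- labelled library. Of the 16 handling genes, 14 were above 0, with a median log2 ratio of 0.619 that was larger than that of the clock genes, and Egr1, an immediate early factor, was called at 305.5 UPM in Il17a+ and 147.3 UPM in Il17a- cells, a ratio of 2.07 that TMM scaling took below 2. In the pool 9 of 16 were above 0, with a median of 0.019. Genes known from Vgamma6 type 17 gamma delta T cells were also higher in Il17a+ cells of the IL-18R- CD103- GFP- labelled library. The scavenger receptor gene Cd163l1 had 1073 UPM in Il17a+ and 637.2 UPM in Il17a- cells, and the receptor segment Tcrg-V6 202.8 UPM in Il17a+ and 115.8 UPM in Il17a- cells. Xcl1, a chemokine of cytotoxic lymphocytes, lay the other way, at 3.408 UPM in Il17a+ and 43.38 UPM in Il17a- cells, as did Tbx21, the type 1 factor, at 16.61 UPM in Il17a+ and 27.83 UPM in Il17a- cells. In Il17a- gamma delta T cells of the pool Xcl1 was at 1.107 UPM and Tbx21 at 14.39 UPM, both below the same cells of the IL-18R- CD103- GFP- labelled library. The part of these genes and of handling in the clock values was not tested. Alpha beta T cells of the IL-18R- CD103- GFP- labelled library held 3.214 UPM of Il17a, a level that free RNA could reach there, against 461.1 UPM in its gamma delta T cells.

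ILC2 were split in the same manner by their own cytokines, after values had been seen. In the 443 ILC2 with Il5 or Il13 transcript, Per1 had 100.9 UPM, against 101.0 UPM in the 902 without, a ratio of 0.999 (0.852 to 1.17). Nr1d1 had 13.06 UPM in ILC2 with and 18.9 UPM in ILC2 without cytokine transcript (ratio 0.691, 0.446 to 1.05). Nr1d2 had 47.09 UPM in ILC2 with and 58.14 UPM in ILC2 without it (ratio 0.81, 0.645 to 1.01). Arntl and Clock were at ratios of 1.16 (0.865 to 1.54) and 0.896 (0.671 to 1.19). The limits of all these genes spanned 1, and Nr1d1, under 20 UPM on both sides, was not measured. Of the 4 measured members 0 were called, beside 0.448% of 5139 genes higher and 0.0973% lower in the cytokine-positive cells. Median depth was 5286 UMIs in the cytokine-positive cells against 4452 UMIs in the others.

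Around the 9 members, 21 further genes of the clock were read as a list. Of the 11 measured between the pool and the IL-18R- ST2+ library, Nfil3 was called higher in the pool and 3 lower, Bhlhe40, Hlf and Fbxl21. Of the 10 measured for the IL-18R- CD103- GFP- labelled library, 0 were called higher and the same 3 lower than in the IL-18R- ST2+ library. Over all genes, 12.3% were called higher and 4.34% lower in the first comparison, and 9.61% and 5.4% in the second. The list's median log2 ratio was 0.431 for the pool and 0.091 for the IL-18R- CD103- GFP- labelled library, beside 0.300 and 0.190 over all genes. TMM scaling ended the call of Nfil3.

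Rora, an activator of Arntl that opposes NR1D1, had 761.3 UPM in the pool, 714.6 UPM in the IL-18R- CD103- GFP- labelled library and 1385 UPM in the IL-18R- ST2+ library. It was called in the lineages, at 709.7 UPM in gamma delta T cells of the pool and 699.7 UPM in those of the IL-18R- CD103- GFP- labelled library, against 1441 UPM in ILC2. Rora thus lay the other way from Nr1d1 in these comparisons with ILC2 or their library, but not in all. Alpha beta T cells had 832.2 UPM of Rora in the pool and 348.7 UPM in the IL-18R- CD103- GFP- labelled library, the same direction as Nr1d1. Over the 7 library and lineage groups, the r of Rora with Nr1d1 was 0.235.

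Among D-box factors, Nfil3, the repressor, had 128.2 UPM in the pool, 100.2 UPM in the IL-18R- CD103- GFP- labelled library and 55.48 UPM in the IL-18R- ST2+ library. Hlf, an activator, had 82.66 UPM in the pool, 37.19 UPM in the IL-18R- CD103- GFP- labelled library and 201.0 UPM in the IL-18R- ST2+ library, and was the listed clock gene called between the pool and the IL-18R- CD103- GFP- labelled library (ratio 2.22, 1.96 to 2.53). Hlf was more abundant than Dbp and Tef in every library, as counted by transcript end. Within the pool Hlf had 50.73 UPM in gamma delta T cells, against 140.4 UPM in CD3-negative Il18r1+ Tcf7+ cells, and within the IL-18R- CD103- GFP- labelled library 28.48 UPM in gamma delta T cells, against 129.2 UPM in CD3-negative cells.

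Bhlhe40 (DEC1), an E-box repressor that T cells also induce on activation, had 286.7 UPM in the pool, 349.4 UPM in the IL-18R- CD103- GFP- labelled library and 781.4 UPM in the IL-18R- ST2+ library. Fbxl21, an F-box protein that acts on CRY proteins, had 1.778 UPM in the pool, 2.061 UPM in the IL-18R- CD103- GFP- labelled library and 35.27 UPM in the IL-18R- ST2+ library. Cry2 and Per3, the remaining CRY and PER genes, stayed between 2.267 and 7.28 UPM in the 3 libraries, and Arntl2, the paralog of Arntl, had 0 UMIs in all of them. Of the handling list, Nr4a1 had 558.5 UPM in the pool, 499 UPM in the IL-18R- CD103- GFP- labelled library and 2275 UPM in the IL-18R- ST2+ library. Hspa1a, a heat shock gene, lay the other way, with 56.44 UPM in the pool, 41.11 UPM in the IL-18R- CD103- GFP- labelled library and 12.68 UPM in the IL-18R- ST2+ library. Their part in the clock differences between libraries was not tested.

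**Figure D4:**
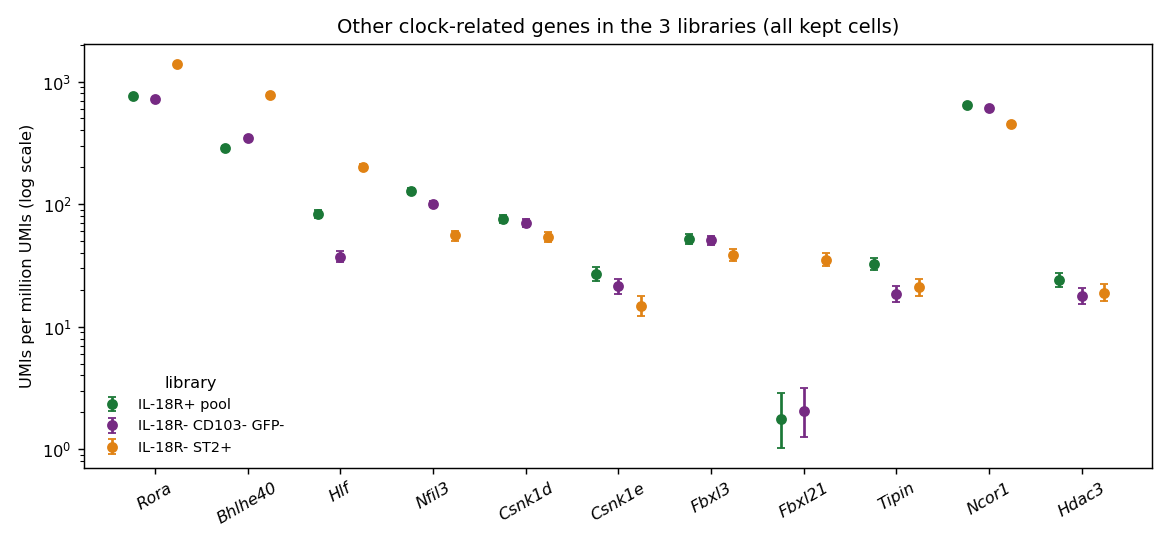
Levels of the 11 further clock genes measured between libraries, in UPM on a log axis, over all kept cells, with exact 95% Poisson limits of counting error. Nfil3 is lowest in the IL-18R- ST2+ library, at 55.48 UPM, while Bhlhe40, Hlf, Rora and Fbxl21 are highest there.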

How the data were processed

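Lung lymphocytes of 3 sorts were profiled by 10x Chromium 3′ v3.1 chemistry, per the labels' protocols. The authors deposited raw UMI counts per gene and barcode, unnormalised, made with Cell Ranger 6.0.1 on mm10, per the submitters' processing notes; the annotation, strand and cell calling used are missing from those notes. Barcodes were kept from 500 detected genes upwards and up to 10% mitochondrial UMIs (1659 of 1688, 1883 of 1903 and 1622 of 1760). Cells were gated on raw marker UMIs, each into 1 gate: gamma delta T (Trdc at least 2, Cd3e at least 1), alpha beta T, ILC2, ILC1 and NK, CD3-negative Il18r1+ Tcf7+, or none. No doublet caller was run; alternatives left out gamma delta cells with Trac and the 5% of cells with most UMIs. Counts were summed over cells and divided by the cells' total, with exact Poisson limits for levels, Clopper-Pearson limits for shares and conditional Clopper-Pearson limits for ratios, all at 95%. These cover counting error only, since each group is 1 library and has no replicate: no test across samples was possible. Genes under 20 UPM on both sides were not measured, and sums were raised to a floor of 3 UMIs before a 2-fold call.

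The members and lists were chosen with earlier results of these data known, and the gates and alternatives in the same knowledge. Named genes are the 9 members, up to 4 called genes per list and comparison and the 5 genes most like Nr1d1, beside lineage markers; Cry2, Per3, Arntl2 and Rora of whole libraries were named after their values were seen. 1 further listed gene is not reported here. Alternatives were TMM (edgeR 4.0.16, R 4.3.3) and median-of-ratios scaling, no minimum level, other cell filters and thinning to 2000 UMIs. Calculations were checked on simulated data and used Python 3.11.15, numpy 2.4.6, scipy 1.17.1 and pandas 2.3.3. Gene positions are from GENCODE M21 and promoter sequences from RefSeq, both GRCm38.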

Additional observations from a re-analysis of the deposited data

Results flagged for a closer look

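Ratios of clock genes lay on opposite sides of equal in the pool and the IL-18R- CD103- GFP- labelled library under 2 contrasts. Their counting limits did not overlap between the libraries, though some of them spanned 1. In Il17a+ against Il17a- gamma delta T cells, the pool had Nr1d1 at a ratio of 0.95 and Cry1 at 0.73, and the IL-18R- CD103- GFP- labelled library had Nr1d1 at 1.78 and Cry1 at 1.5. In gamma delta T cells against CD3-negative Il18r1+ Tcf7+ cells, the pool had Nr1d1 at a ratio of 2.6 and Nr1d2 at 1.49, and the IL-18R- CD103- GFP- labelled library had Nr1d1 at 0.93 and Nr1d2 at 0.66. After thinning every cell to 2000 UMIs, a Nr1d1 UMI was in 9.67% of gamma delta T cells and 8.97% of CD3-negative cells of that library, and a Nr1d2 UMI in 10.4% and 10.3%, so neither stayed below equal there. In the Il17a contrast, the limits of Nr1d1 and Cry1 spanned 1 in the pool. In the other contrast, those of Nr1d1 spanned 1 in the IL-18R- CD103- GFP- labelled library. In that library, thinning left a Nr1d1 UMI in 11.3% (8.6 to 14.4) of Il17a+ and 8.82% (7.07 to 10.8) of Il17a- gamma delta T cells. Those limits overlapped. With 1 library on each side the difference between libraries was not tested.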

How the results depend on the processing

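Of 123 recomputed counts of called clock genes, 106 were equal to the reported count or within 1.5 times of it. A reported count of 0 was kept only by staying at 0. The rule did not ask which genes were called, so a kept count can hold other genes. With TMM and with median-of-ratios scaling, 1 clock gene (Cry1) was called in the pool against the IL-18R- ST2+ library and 1 (Nr1d1) between alpha beta T cells of the pool and those of the IL-18R- CD103- GFP- labelled library. That alpha beta count was also 1 without the 5% of cells with most UMIs (Nr1d1) and 1 after thinning (Nr1d2), where Cry1 reversed to a log2 ratio of -0.961. Gamma delta against alpha beta T cells of the IL-18R- CD103- GFP- labelled library gave 4 without a minimum level, 1 without the 5% of cells with most UMIs, 1 after thinning and 4 without the 3 cells with most UMIs of each gene. Without a minimum level, 1 gene was called in the pool against the IL-18R- CD103- GFP- labelled library (Per2), 1 in each Il17a contrast (Tef) and 1 in the ILC2 split (Per2). The Il17a contrast of the IL-18R- CD103- GFP- labelled library gave 1 after thinning (Dbp) and 1 in cells of at least 4000 UMIs (Nr1d1). Gamma delta against CD3-negative cells of that library gave 1 after thinning (Dbp). TMM shifted log2 ratios by over 0.1 also between alpha beta T cells (-0.179), in both comparisons of gamma delta with CD3-negative cells (0.150 in the pool, 0.180 in the IL-18R- CD103- GFP- labelled library), against ILC2 (-0.252 and -0.186), and in the IL-18R- CD103- GFP- labelled library between gamma delta and alpha beta T cells (-0.109) and by Il17a (-0.122). Of 807 recomputed ratios, 774 stayed within their counting limits and 58 changed side of equal. Ratios without a minimum level come from the same sums and could not move. They are among the 774, which is therefore no measure of how stable the ratios are. The cause of each change was not tested. No paired analysis was possible because each group is 1 library with no replicate number.

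Depth limits Per2, Tef and the alpha beta and CD3-negative cells of the IL-18R- CD103- GFP- labelled library, where Nr1d1 rests on 8 and 23 UMIs.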
